A study of Rattus norvegicus with 6 samples.

Results

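The transforming growth factor-β (TGF-β) superfamily ligands of cultured heart muscle cells were followed at the RNA level: the TGF-β isoforms Tgfb1, Tgfb2 and Tgfb3, the bone morphogenetic protein (BMP) genes Bmp2, Bmp4, Bmp6, Bmp7 and Bmp10, the activin A subunit gene Inhba, and the growth differentiation factor Gdf15. The genes were chosen by name, and every array probe set that the platform annotation pairs with exactly 1 of these symbols was kept. All 10 genes were found, each with 1 probe set, among 15310 probe sets for 14506 genes with a single symbol. Transcripts of Tgfb2 rose with hCT1, those of Tgfb3, Bmp4, Bmp10 and Gdf15 fell, and the remaining 5 missed the threshold of the test. The differences were small, the largest being the 1.36-fold fall of Gdf15.

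Cells of both groups were primary cardiomyocytes from the ventricles of 2-day-old Sprague-Dawley rats, pre-plated to reduce the fibroblasts and kept without serum. The 3 treated samples (hCT1) had received human cardiotrophin 1, a cytokine of the interleukin-6 family that makes cardiomyocytes grow, at 0.5 nM for 24 h, and the 3 control samples had received the serum-free medium alone. The records also give a growth medium containing a hypertrophic agonist for every sample, and whether the controls also received one could not be told from the labels. RNA was taken in triplicate, with no word on separate cultures, and the p-values therefore measure a spread that may be technical.

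TGF-β ligands are secreted in a latent form, bound to their own propeptide and to latent TGF-β binding proteins in the matrix, and after release they signal through paired type I and type II serine/threonine kinase receptors to SMAD2 and SMAD3. BMPs use related receptors that lead to SMAD1, SMAD5 and SMAD9, and are held back outside the cell by antagonists such as noggin and chordin. In the heart the TGF-βs are best known for driving matrix production by fibroblasts, BMPs for valve and chamber formation, and GDF15 as a secreted stress signal whose receptor lies in the brainstem.

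Against the whole array, 762 probe sets (4.98%) were higher and 1506 (9.84%) lower with hCT1 at a limma adjusted p under 0.05, or 14.8% in either direction. The 10 ligands gave 1 higher and 4 lower. Brighter probe sets passed more often: with those under the 40th percentile of mean level left out, 844 were higher and 1935 lower. These are more calls among fewer probe sets, so the shares there were above 4.98% and 9.84%. That filter removed Bmp10, and the other ligands gave 1 higher and 3 lower. Every hCT1 sample lay above every control in 13.9% of all probe sets and below in 20.5%, and among the ligands in 1 and 4. The median difference of the ligands was -0.16 on the log2 scale and that of all probe sets was -0.0028, while the median size of the difference regardless of direction was 0.18 for the ligands and 0.10 for all. Of the calls over all probe sets 33.6% were higher, a share that became 44.4% (917 higher, 1148 lower) after another round of quantile normalization and 41.0% (920 higher, 1324 lower) after centring each array on its median. Under both of these the ligands gave 1 higher and 3 lower, since Tgfb3 no longer passed.

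**Figure D1:**
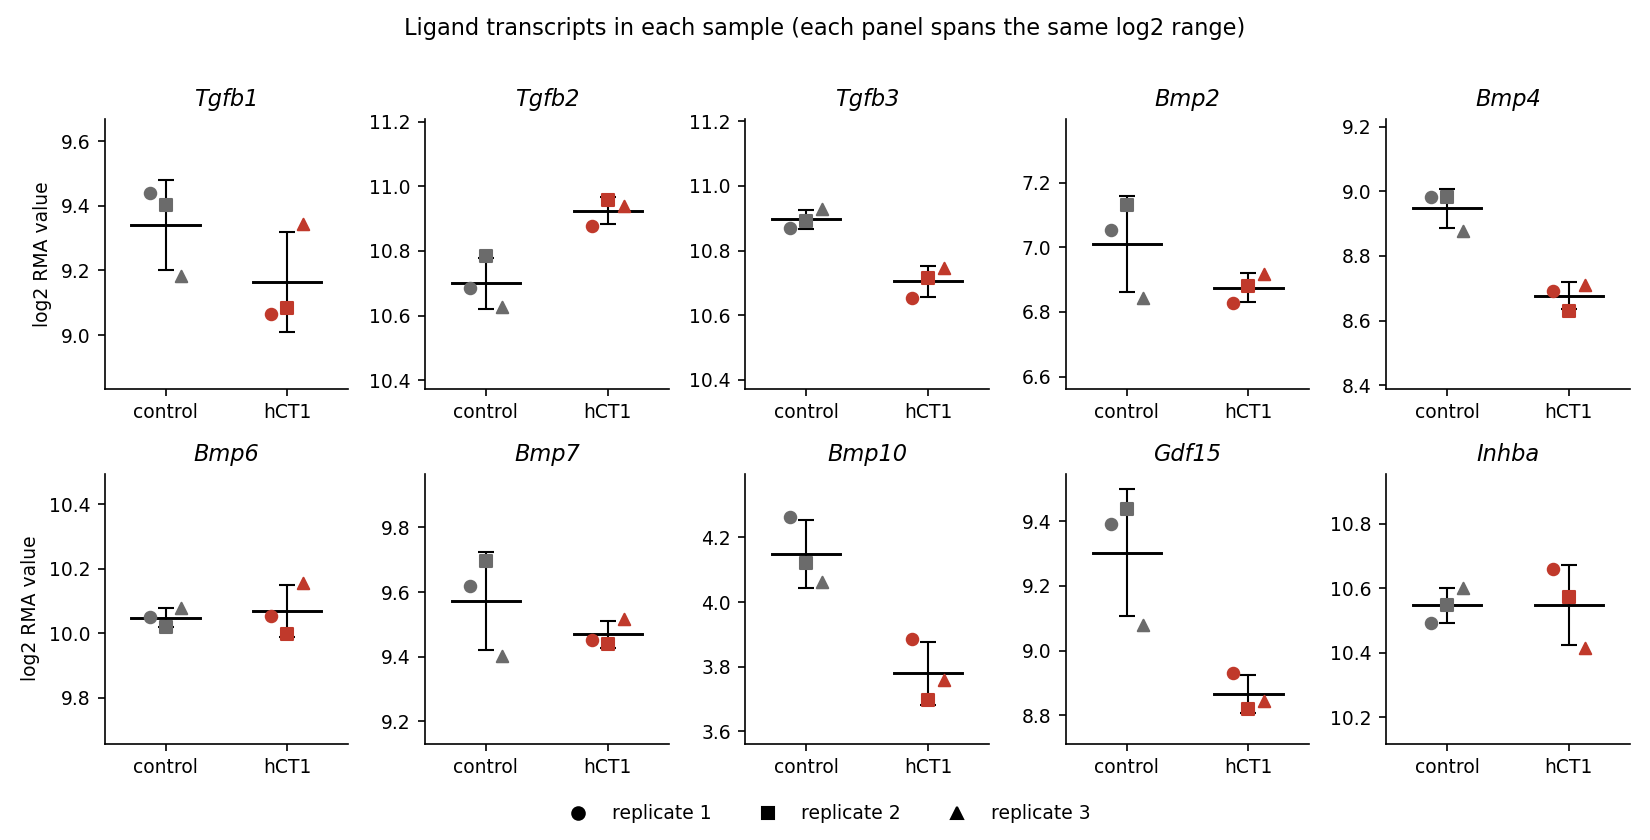
The log2 RMA value of each ligand in each of the 3 control and 3 hCT1 samples, with 1 panel per gene; points are single samples and bars are means with SD. The groups are fully apart for Tgfb2 (hCT1 above), Tgfb3, Bmp4, Bmp10 and Gdf15 (hCT1 below) and overlap for the other 5.

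The TGF-β isoforms did not move together. Tgfb2, which is needed for cushion and valve formation in the embryonic heart, had log2 values of 10.69, 10.79 and 10.63 in control replicates 1 to 3 and of 10.88, 10.96 and 10.94 in hCT1 replicates 1 to 3 (probe set 10770577). All 3 hCT1 samples lay above the highest control, by 0.09 on the log2 scale. The mean rose from 10.70 ± 0.08 to 10.92 ± 0.04 (SD, n = 3 each), a difference of 0.23 ± 0.06 (SE, 95% interval 0.09 to 0.36) or 1.17-fold, with an adjusted p of 0.0380 in limma. The call rested on the full set of samples: it was kept without control replicate 2 (adjusted p = 0.0457) and lost without any other single sample (0.0670 to 0.111).

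Tgfb3, the isoform of palate and lung development, went the other way. Its log2 values were 10.87, 10.89 and 10.93 in control samples and 10.65, 10.71 and 10.75 in hCT1 samples (probe set 10891303). No hCT1 sample reached the lowest control, and 0.12 on the log2 scale lay between the groups. The mean fell from 10.90 ± 0.03 to 10.70 ± 0.05, a difference of -0.19 ± 0.06 (SE, 95% interval -0.32 to -0.07), which is 1.14-fold lower with a limma adjusted p of 0.0465. This was the weakest of the 5 calls and was lost without any single sample (adjusted p from 0.0727 to 0.150).

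Tgfb1, the isoform most tied to fibrosis, had control values of 9.44, 9.40 and 9.18 and hCT1 values of 9.06, 9.08 and 9.34 on the log2 scale (probe set 10705213). In each group 2 samples stood together and replicate 3 lay at the level of the other group, so the groups overlapped. The difference of -0.18 ± 0.09 (SE, 95% interval -0.39 to 0.03) did not pass (limma adjusted p = 0.242), and the interval spans from 1.31-fold lower to 1.02-fold higher.

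Of the BMPs, Bmp4 and Bmp10 were lower and Bmp2, Bmp6 and Bmp7 did not pass. Bmp4, a ligand of mesoderm and outflow tract formation, had log2 values of 8.98, 8.98 and 8.88 in control samples and 8.69, 8.63 and 8.71 in hCT1 samples (probe set 10782891). The hCT1 samples were all below the lowest control, by 0.17. The mean fell from 8.95 ± 0.06 to 8.68 ± 0.04, a difference of -0.27 ± 0.06 (SE, 95% interval -0.40 to -0.14) or 1.21-fold lower (limma adjusted p = 0.0151). The adjusted p passed 0.05 without control replicate 1 (0.0554), control replicate 2 (0.0621) or hCT1 replicate 2 (0.0586), where the difference was still -0.25 in each case.

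Bmp10 is a ligand of the heart itself, needed for growth of the trabeculated ventricle in the embryo and found mainly in the atria later. The probe set was dim (10857064), at the 30.7th percentile of all 29215 probe sets in control samples and the 24.4th in hCT1 samples. Over the 6 samples its mean lay at the 19.6th percentile of the single-symbol probe sets. Its values may lie near background, since they came without detection calls. The log2 values were 4.26, 4.12 and 4.06 in control and 3.89, 3.70 and 3.76 in hCT1 samples, again with every hCT1 sample lowest. The mean fell from 4.15 ± 0.10 to 3.78 ± 0.10, a difference of -0.37 ± 0.07 (SE, 95% interval -0.54 to -0.20) or 1.29-fold lower (limma adjusted p = 0.0115). Of the 5 calls this was the one kept without each of the 6 samples in turn (adjusted p from 0.0133 to 0.0463), though a probe set this dim does not enter a test restricted to brighter ones.

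The other BMPs gave overlapping groups. Bmp2, an inducer of early heart mesoderm and of valve tissue, had log2 values of 7.05, 7.13 and 6.84 in control samples and 6.83, 6.88 and 6.92 in hCT1 samples (difference -0.13 ± 0.08 SE, 95% interval -0.31 to 0.04, limma adjusted p = 0.283, probe set 10840138). For Bmp2 control replicate 3 was lower than its fellow controls, and without it the difference was -0.22 with an adjusted p of 0.0457. Bmp7, a ligand of kidney development that opposes TGF-β signalling in fibrosis models, had 9.62, 9.69 and 9.40 in control samples against 9.45, 9.44 and 9.52 in hCT1 samples (difference -0.10 ± 0.08 SE, 95% interval -0.28 to 0.07, adjusted p = 0.416, probe set 10852106). Control replicate 3 was the lowest of all 6 samples for Bmp7. Bmp6, which in the liver sets hepcidin levels, had 10.05, 10.02 and 10.08 against 10.05, 9.998 and 10.16 (difference 0.02 ± 0.06 SE, adjusted p = 0.855, probe set 10797949), and the 95% interval spans from 1.08-fold lower to 1.11-fold higher.

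Inhba encodes the βA subunit of activin A, which signals through activin receptors to SMAD2 and SMAD3. The log2 values were 10.49, 10.55 and 10.60 in control samples and 10.66, 10.57 and 10.41 in hCT1 samples (probe set 10798702). The hCT1 samples spanned the controls on both sides, and the means of 10.55 ± 0.05 and 10.55 ± 0.12 differed by 0.00 ± 0.07 (SE, 95% interval -0.16 to 0.16, limma adjusted p = 0.995).

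Gdf15, a stress-induced secreted factor and a circulating marker of heart disease, had the widest difference of the 10 ligands on the log2 scale. Control replicates 1 to 3 had log2 values of 9.39, 9.44 and 9.08 and hCT1 replicates 1 to 3 had 8.93, 8.82 and 8.84 (probe set 10787517). The hCT1 samples lay close together and below all controls, and control replicate 3 was the lowest of the controls. The mean fell from 9.30 ± 0.20 to 8.86 ± 0.06, a difference of -0.44 ± 0.09 (SE, 95% interval -0.65 to -0.23) or 1.36-fold lower (limma adjusted p = 0.0146). The difference was -0.55 without control replicate 3 (adjusted p = 0.00195), and the call was lost without control replicate 1 (0.0540), control replicate 2 (0.0526) or hCT1 replicate 2 (0.0520).

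**Figure D2:**
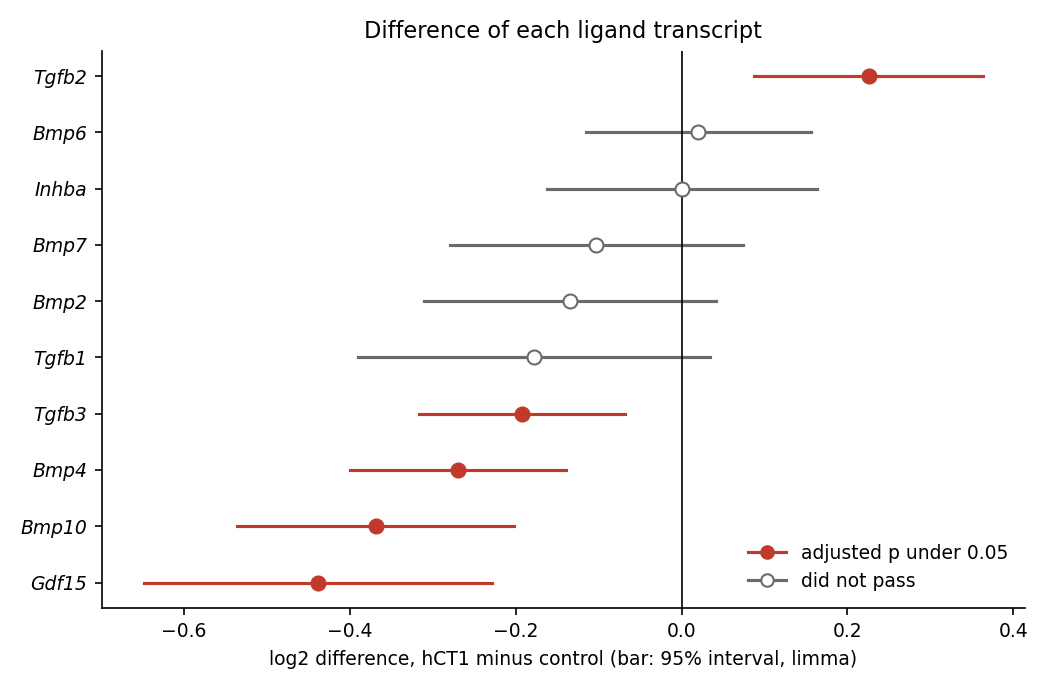
Difference in mean log2 value, hCT1 minus control, for each ligand (points) with 95% intervals from limma (bars). The intervals of Tgfb2 (0.09 to 0.36) and of Tgfb3, Bmp4, Bmp10 and Gdf15 (highest upper bound -0.07, Tgfb3) leave out 0, and those of the other 5 include it.

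Control replicate 3 touched several of these results. It was the lowest control in 7 of the 10 ligands and in 40.5% of all probe sets, and the control nearest to the hCT1 mean in 7 of the 10 ligands, in 43.9% of all probe sets and in 57.4% of the probe sets called lower. Without control replicate 3 the differences of Gdf15 (-0.55), Bmp10 (-0.41), Bmp4 (-0.30) and Bmp2 (-0.22) were larger and passed, Bmp2 only there, while those of Tgfb2 (0.19, limma adjusted p = 0.0734) and Tgfb3 (-0.18, 0.0773) were smaller and did not pass. The exact permutation test over samples, which with 3 against 3 cannot go below 0.1, gave 0.1 for each of the 5 ligands whose groups were apart and between 0.2 (Tgfb1) and 1 (Inhba) for the rest.

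**Figure D3:**
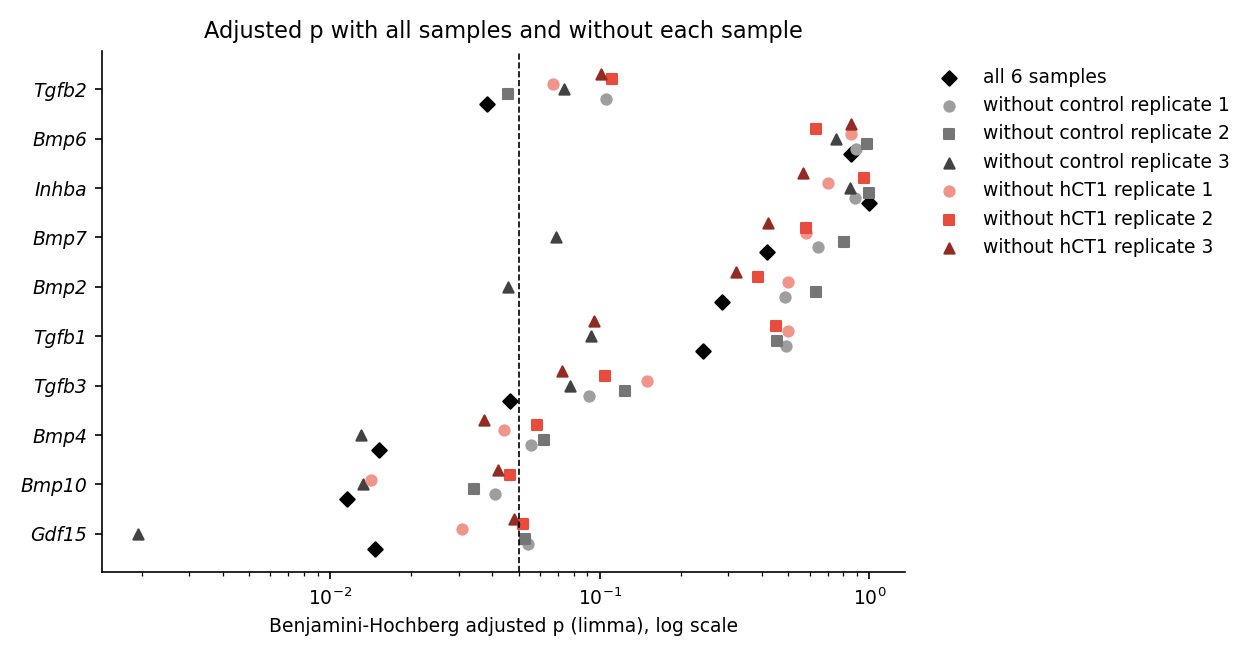
Benjamini-Hochberg adjusted p of each ligand from limma (log scale) over all 6 samples (black diamonds) and with each sample left out in turn (other symbols); the dashed line is at 0.05. All symbols of Bmp10 lie left of the line, those of Tgfb3 lie right of it (0.0727 to 0.150) except the diamond (0.0465), and Gdf15 ranges from 0.00195 to 0.0540.

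The promoters of the ligands that passed the test, and that of Inhba, are shown so that the sequence next to each start can be read beside these differences. Inhba did not pass, and its promoter held a TATA box. The promoters of Tgfb1 and Bmp6, which did not pass either, held no match to a searched motif and are not shown. RefSeq (assembly GRCr8) gave 9 promoters for 8 of the 10 ligand genes, with 2 starts for Gdf15, of which the one with a match is shown; Bmp2 and Bmp7 had no entry. Each line gives the 120 bases before the transcription start, 5′ to 3′ on the gene's strand, and capitals mark a TATA box.
Tgfb2 (chr13:100792686-100792805, minus strand): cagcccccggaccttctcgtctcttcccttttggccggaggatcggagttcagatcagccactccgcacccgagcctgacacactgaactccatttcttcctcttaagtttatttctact
Tgfb3 (chr6:111456947-111457066, minus strand): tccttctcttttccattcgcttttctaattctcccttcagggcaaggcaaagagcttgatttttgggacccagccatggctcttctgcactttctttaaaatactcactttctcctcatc
Bmp4 (chr15:22101934-22102053, minus strand): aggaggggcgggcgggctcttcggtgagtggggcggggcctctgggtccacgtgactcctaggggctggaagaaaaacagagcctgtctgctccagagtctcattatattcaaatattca
Bmp10 (chr4:121429255-121429374, plus strand): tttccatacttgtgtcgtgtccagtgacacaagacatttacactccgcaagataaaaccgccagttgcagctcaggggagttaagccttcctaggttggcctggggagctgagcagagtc
Gdf15 (chr16:18839145-18839264, plus strand): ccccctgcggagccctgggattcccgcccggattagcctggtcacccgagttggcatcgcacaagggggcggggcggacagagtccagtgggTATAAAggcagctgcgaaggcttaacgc
Inhba (chr17:53804509-53804628, minus strand): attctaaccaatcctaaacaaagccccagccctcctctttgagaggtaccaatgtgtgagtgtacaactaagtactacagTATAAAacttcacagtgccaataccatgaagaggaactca

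In the 250 bases before each start, both strands were searched for the STAT site TTCNNNGAA, the palindromic SMAD site GTCTAGAC, the AP-1 site TGANTCA, the ATF4 site TGATGCAA and the TATA box TATAAA. The TATA box was found before Gdf15, from 28 to 23 bases ahead of the start, and before Inhba, from 40 to 35 bases ahead, and none of the other motifs was found in the 9 ligand promoters. Of all 33469 promoters in the table, 12.9% held the TATA box, 7.67% the STAT site, 6.34% the AP-1 site, 0.693% the ATF4 site and 0.173% the SMAD site. The ligand promoters differed in base content: G and C made up 43.6% of the 250 bases before Inhba, 48.8% before Tgfb3, 61.6% before Tgfb2 and 66.4% before Bmp4, against a median of 51.2% over all promoters. These matches describe the letters of the windows and nothing about binding.

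Around the ligands, 126 further genes of the pathway were listed, 107 of which had a probe set, and each was represented by its brightest one. The test called 10 of them higher and 12 lower and left 85 uncalled, so that 20.6% passed, beside 14.8% of all probe sets. These genes were listed with earlier results of these data known, so their share is not independent of the outcome. With dim probe sets filtered out they gave 11 higher and 16 lower, and all probe sets left gave 844 higher and 1935 lower. Because brighter probe sets passed more often, 20.6% and 14.8% are not shares at a matched level. The median difference over the 107 was 0.01.

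Of the other family ligands 19 of 23 were measured, of which 1 was higher and 2 were lower (median difference 0.03). That is 15.8% called, near the 14.8% of all probe sets. Inha, whose inhibin α chain pairs with activin β chains and blocks activin, fell by 0.60 ± 0.12 (SE) on the log2 scale, or 1.51-fold (limma adjusted p = 0.0101). Gdf6, a BMP ligand of joint and skeletal patterning, fell by 0.37 ± 0.06 (SE; adjusted p = 0.00565). Gdf9, a factor of the oocyte, rose by 0.25 ± 0.06 (SE; adjusted p = 0.0268) from a dim level, at the 23.9th percentile in control samples, and the call was lost without each of control replicates 1, 2 and 3 and hCT1 replicates 2 and 3.

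Among the receptors and co-receptors 3 of 17 were higher and 1 was lower (median 0.02), or 23.5% called beside 14.8% of all probe sets. Acvr1b, the type I receptor for activins and nodal, rose from 8.12 ± 0.02 to 8.77 ± 0.03 (SD, n = 3 each), a difference of 0.65 ± 0.05 (SE) or 1.57-fold with a limma adjusted p of 8.43e-05. Bmpr2, the type II receptor for BMPs that is mutated in hereditary pulmonary arterial hypertension, rose by 0.30 ± 0.05 (SE; adjusted p = 0.00658). Tgfbr3, the co-receptor betaglycan that presents TGF-β2 to the signalling receptors, rose by 0.28 ± 0.06 (SE; adjusted p = 0.0136), and not without hCT1 replicate 3 (0.0503). Hjv, the BMP co-receptor hemojuvelin of muscle and liver, fell from 7.48 ± 0.07 to 6.80 ± 0.01, or 1.60-fold (adjusted p = 1.17e-04). Gfral, the receptor of GDF15, was at the 8.36th percentile of the array in control samples and did not pass (difference 0.07 ± 0.07 SE, adjusted p = 0.571; named after its value was seen). Tgfbr2, the type II receptor of the TGF-βs, was not analysed here.

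Of the 14 measured genes that store, process and release the ligands, 3 were higher and 4 lower (median 0.03). That is 50% called in this list, beside 14.8% of all probe sets. Pcsk6, a proprotein convertase that cleaves precursors of TGF-β family ligands and of corin, rose from 8.37 ± 0.05 to 9.07 ± 0.05, or 1.63-fold (limma adjusted p = 9.38e-05). Itgb6, the β chain of an epithelial integrin that releases latent TGF-β1 and TGF-β3, fell by 0.61 ± 0.08 (SE; 1.53-fold lower, adjusted p = 0.00141). Itgb8, the chain of another integrin that frees latent TGF-β, rose by 0.35 ± 0.06 (SE; 1.28-fold, adjusted p = 0.00357). The binding proteins of the latent complex also went in different directions, with Ltbp1 higher by 0.33 (adjusted p = 0.00467) and Ltbp3 lower by a difference of -0.26 (adjusted p = 0.0224). Ltbp2, a relative that does not bind latent TGF-β, fell by 0.38 (adjusted p = 0.00677). Ltbp1, Ltbp3 and the BMP1-like protease gene Tll1 (-0.32, adjusted p = 0.0137) were named after their values were seen.

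Of 13 secreted antagonists and decoys, 1 passed (7.69%, beside 14.8% of all probe sets). This was Bambi, a membrane pseudoreceptor that is itself a target of TGF-β and BMP signalling. Bambi fell by 0.23 ± 0.06 (SE, limma adjusted p = 0.0343). The call for Bambi was lost without any single sample other than control replicate 3. In the list of SMADs and their regulators limma called 0 of 13, with 2 higher and 1 lower at an unadjusted p under 0.05. The one-way test of the study's statistics section also called 0 after adjustment, and 2 higher before it. Before adjustment that test gave 1483 higher and 2467 lower over all 15310 probe sets. Pmepa1 was called lower with trend and robust variances (adjusted p = 0.0329), with array weights (0.0382), without dim probe sets (0.0436) and without control replicate 3 (0.0318), where the list had 2 lower. These settings called more of all probe sets than the main fit did, 844 to 1097 higher and 1810 to 2012 lower. The largest differences of the SMAD list, both of them feedback inhibitors induced by TGF-β, were those of Pmepa1 (-0.23 ± 0.08 SE, adjusted p = 0.0832) and Smad7 (-0.22 ± 0.10 SE, adjusted p = 0.175).

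**Figure D4:**
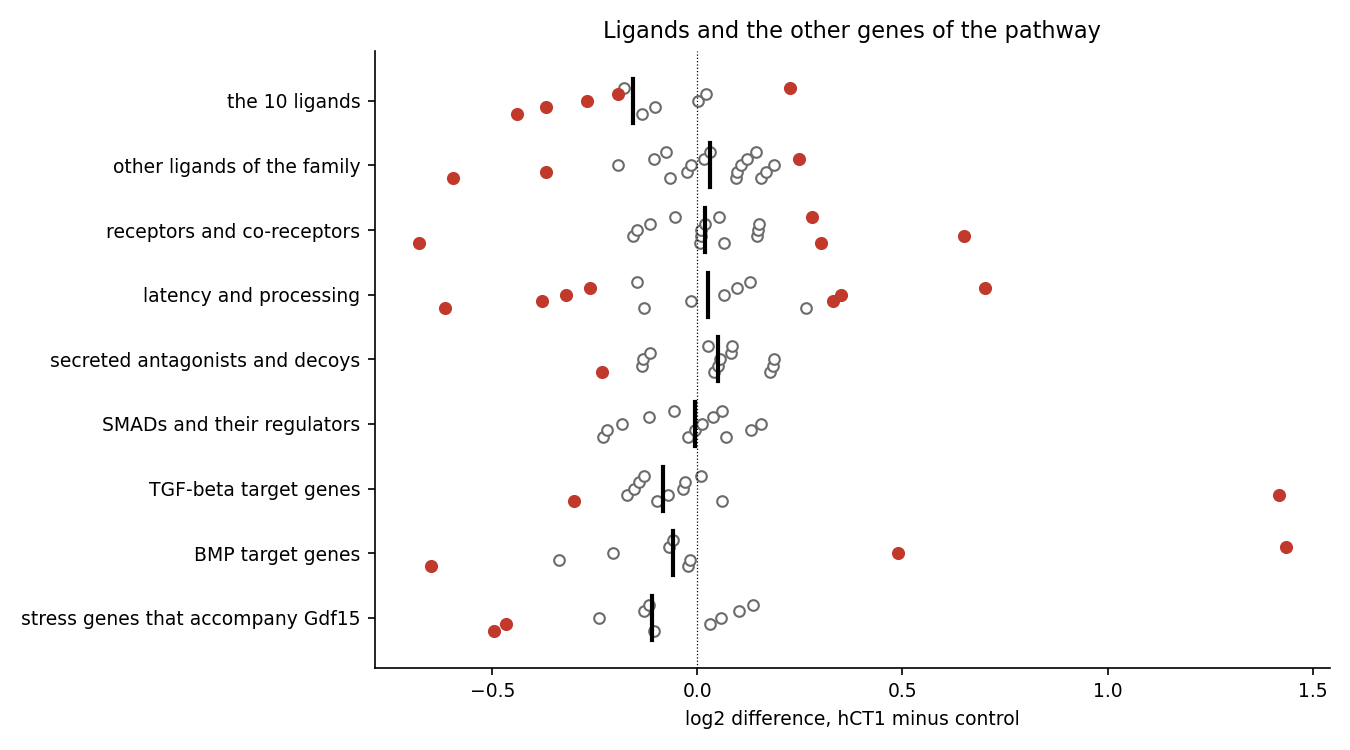
Difference in mean log2 value, hCT1 minus control, of every measured gene of the ligands and of the 8 pathway lists; each point is 1 gene, filled and red where its limma adjusted p is under 0.05, and the bar is the list's median. The medians lie between -0.16 (the ligands) and 0.05 (antagonists), and the farthest points are the TGF-β target Tgfbi (1.42) and the BMP target Hamp (1.44).

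Target genes gave single large differences and list medians near 0. Of the measured TGF-β targets 16.7% passed and of the BMP targets 33.3%, beside 14.8% of all probe sets. Of 12 TGF-β targets 1 was higher and 1 lower (median -0.08): Tgfbi, a matrix protein named for its induction by TGF-β, rose from 8.17 ± 0.02 to 9.59 ± 0.01, or 2.67-fold (limma adjusted p = 7.19e-07), and Tagln, the smooth muscle actin-binding protein transgelin, fell by 0.30 ± 0.05 (SE; adjusted p = 0.00688). Limma with trend and robust variances called 1 higher and 4 lower, and over all 15310 probe sets 975 higher and 1897 lower. The unadjusted one-way test gave 2 higher and 5 lower, and over all probe sets 1483 higher and 2467 lower. At an unadjusted limma p under 0.05, 1 was higher and 5 were lower. Besides Tagln these 5 were the matrix and matrix-crosslinking genes Col1a2 (-0.14), Col3a1 (-0.17) and Loxl2 (-0.16) and the matricellular Ccn2 (-0.13). Their hCT1 samples lay below all controls, as in 20.5% of all probe sets, and their adjusted p were 0.106, 0.110, 0.0819 and 0.153. Col1a1 (-0.07, adjusted p = 0.424) and Fn1 (0.06, 0.459) did not pass either, and these 6 genes were named after their values were seen.

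Of 9 BMP targets 2 were higher and 1 lower (median -0.06). Hamp, which encodes hepcidin, the hormone that limits iron export and a target of both BMP6 with hemojuvelin and interleukin-6 through STAT3, rose from 9.19 ± 0.29 to 10.62 ± 0.22, or 2.71-fold (limma adjusted p = 3.82e-04). Atoh8, a helix-loop-helix factor, rose by 0.49 ± 0.07 (SE; adjusted p = 0.00218), and Msx2, a homeobox factor, fell by 0.65 ± 0.06 (SE; adjusted p = 2.14e-04). The Id genes, the usual readout of BMP signalling, did not pass: Id1 differed by -0.07, Id2 by -0.21, Id4 by -0.02 and Id3 by -0.34 with an adjusted p of 0.0622 (named after their values were seen).

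Beside Gdf15, 10 genes of the stress responses in which it takes part were measured, and 2 of them were lower (median -0.11). Over all probe sets 9.84% were lower. Ddit3, which encodes the unfolded protein response factor CHOP, fell by 0.50 ± 0.07 (SE; 1.41-fold lower, limma adjusted p = 0.00148), and Trib3, a pseudokinase induced by CHOP and ATF4, fell by 0.47 ± 0.08 (SE; 1.38-fold lower, adjusted p = 0.00529). Their inducer Atf4 did not pass (-0.10, adjusted p = 0.302; named after its value was seen). The rest of the list went both ways and did not pass. Chac1 (-0.24), Cdkn1a (-0.13) and Mdm2 (-0.12) differed downward, and Asns (0.03), Egr1 (0.06), Atf3 (0.10) and Fgf21 (0.14) upward. These too were named after their values were seen.

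For each ligand that passed, the genes whose values relative to their own control mean lay nearest over the 6 samples were looked up, as a description. Those nearest to Bmp4 were Ckb, Eif4ebp1 and Commd9, at root mean square distances of 0.00760, 0.00914 and 0.0143 on the log2 scale. Tgfb2 lay nearest to Ulk2, Nxpe4 and Slfn2 (0.0158 to 0.0250), and Tgfb3 to Retsat, Cyb5a and Decr1 (0.0124 to 0.0172). The nearest to Bmp10 were Ankrd54, Bloc1s1 and Trabd (0.0192 to 0.0329). Gdf15 stood farther from its nearest genes Ppp1r35, Aldh5a1 and Fam234b (0.0359 to 0.0514).

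All 10 markers of the labelled cell type, cardiomyocytes, were measured, between the 83.5th and 99.9th percentile of the array in control samples (median 99.2). Markers of fibroblasts lay between the 59.4th and 99.3th percentile (median 85.75). Those of smooth muscle and pericytes lay between the 57.4th and 99.9th (median 93.5). High levels alone therefore do not set the labelled type apart from these cells. In a bulk culture, fewer cells of a type and less RNA per cell cannot be told apart. Of the cardiomyocyte markers 3 were lower, from Tnni3 (-0.62) to Tnnt2 at the top of the list (0.03), and their summed linear signal ran from 27650 to 28020 in control samples and from 25570 to 26810 in hCT1 samples. Fibroblast markers were also present, with 0 of 10 called by limma (1 higher and 2 lower at an unadjusted p under 0.05), from Col3a1 (-0.17) to Dcn (0.18), and a sum of 10160 to 10680 against 9649 to 9917, while the mean of their log2 values overlapped (8.94 to 8.96 against 8.87 to 8.95).

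Markers of other cells were lower by sum in hCT1 samples in most cases. Such sums of linear signal follow mainly the brightest markers. Over all probe sets 9.84% were called lower, for comparison with the marker counts. Those of smooth muscle and pericytes gave 2 of 7 lower, from Myh11 (-0.39) to Cnn1 (0.11), with sums of 10830 to 11090 against 10320 to 10510. The 2 were Myh11 and Tagln (-0.30), the latter also listed above as a TGF-β target, and the list's median difference was -0.01. The bright Acta2 (0.01) did not pass. The mean of the log2 values was 9.54 to 9.58 in control samples and 9.46 to 9.49 in hCT1 samples. Macrophage markers gave 1 of 9 lower, from Lyz2 (-0.52) to Mrc1 (0.20), with sums of 519 to 542 against 430.0 to 486 and 4 of the 9 under the 40th percentile. The list's median difference was -0.01 and the mean of its log2 values overlapped between the groups (5.15 to 5.21 against 5.07 to 5.21), so that the lower sum was mainly that of Lyz2. Epicardial markers gave 1 of 4 lower, from Msln (-0.29) to Upk1b (0.19), with sums of 477 to 517 against 428 to 444. The endothelial sums overlapped (1136 to 1281 against 1144 to 1188), with 1 of 7 lower, from Emcn (-0.47) to Tek (0.17). The part of these cells in the ligand differences was not tested.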

How the data were processed

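Expression was measured in 6 samples, 3 hCT1 and 3 control, with 1 Affymetrix rat array each. Per the labels, the authors ran RMA in Affymetrix Expression Console, a method that corrects background, equalises quantiles across arrays and condenses the probes of a set, and deposited the resulting log2 values. They were used as deposited. No genome build for the probe sets is given in the sources used here, so promoter coordinates are those of RefSeq, assembly GRCr8. The number of arrays limits the precision.

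Of 29215 probe sets, 15310 were tested because the platform annotation gave them 1 gene symbol; 323 carried several and 13582 carried none. The Entrez identifier matched 15279 to RefSeq. Samples were grouped by their titles. The groups were compared with limma 3.58.1 (R 4.3.3; functions lmFit, eBayes; 2-sided, Benjamini-Hochberg over the 15310 probe sets, threshold 0.05, no replicate block; statmod 1.5.0 for the robust alternative), since no test is named for the arrays. Columns of per-sample values belonging to no sample numbered 0. The fit was tested on simulated data.

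Named were all ligands, the genes of each pathway list that passed (the 4 largest where more did, the 2 largest differences where none did), the lowest and highest of each marker list, and the 3 nearest genes of each ligand that passed. Members and lists were chosen with earlier results of these data known. Alternatives were eBayes with trend and robust, array weights, the one-way test of the study's statistics section, leaving out probe sets under the 40th percentile of mean level, testing all probe sets, another quantile normalization, median centring, probe sets averaged per gene, thresholds of 0.01 and 0.1, the replicate number as a block, and leaving out each sample. Promoters were searched in Python 3.11.15.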

Additional observations from a re-analysis of the deposited data

How the results depend on the processing

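The 5 ligand calls kept their direction under all alternatives, but not always their side of the threshold: of 17 alternatives other than the unadjusted one-way test, Tgfb2 passed in 8, Tgfb3 in 5, Bmp4 in 13 and Gdf15 in 12, and Bmp10 in 14 of 16, as the filter on dim probe sets removed it. The count of higher ligands (1) was 0 with the one-way test after adjustment, with all probe sets tested, at an adjusted p under 0.01 and with the replicate block, and 0 to 1 when each sample was left out. The count of lower ligands (4) was 1 with the adjusted one-way test and 0 at 0.01, and 1 to 4 when each sample was left out, with 1 without control replicate 1, control replicate 2 or hCT1 replicate 2. The pathway lists gave 16 higher genes with the unadjusted one-way test in place of 10, and 7 lower with the adjusted one in place of 12. Over all probe sets, 762 higher became 376 (one-way adjusted), 1483 (unadjusted), 296 (adjusted p under 0.01), 1265 (under 0.1) and 490 (replicate block), and 417 to 873 when each sample was left out; 1506 lower became 675, 2467 and 563 in the first 3 of these, and 803 to 1810. The cause was not tested. Over the left-out samples Inhba ran from -0.0549 to 0.0682, below 0 where control replicate 1 (-0.0264), hCT1 replicate 1 or hCT1 replicate 2 (-0.0108) was missing, and Bmp6 from -0.0231 (hCT1 replicate 3 missing) to 0.0558, none of them past the threshold. The replicate numbers of the labels did not pair the samples (correlations of the deviations from the group means -0.03, 0.05 and -0.28). With the replicate number as a block Tgfb2 (adjusted p = 0.0725) and Tgfb3 (0.0947) were lost and Bmp4, Bmp10 and Gdf15 were kept.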
